A study of Mus musculus with 2 samples.

Results

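The genes described here were 10 genes of the oncostatin M and gp130 cytokine pathway in the newborn mouse bladder: the ligands Osm, Lif, Il6 and Il11, the receptor subunits Osmr, Lifr, Il6ra and Il6st, the transcription factor Stat3 and its inhibitor Socs3. They were found by gene identifier among the 43346 mouse genes of each deposited gene file, and all 10 were present. The genes were chosen with earlier results of these libraries known, including differences between the animals, so their values are a description and no test was run on them. The bladders came from 2 pups of strain B6NCrl at an age of 0 days. For each pup 1 library of total RNA was made from 10 ng, with spike-in RNAs added. Both pups came from the same pregnant female. The labels give no treatment, no altered genotype and no sex, so the samples form a single group of newborn bladder, pup 1 and pup 2 (n = 2). The data answer how strongly each gene was expressed and how far 2 littermates differed.

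Cytokines of this family signal through gp130, the shared receptor subunit encoded by Il6st. Interleukin-6 and interleukin-11 first bind their own receptors and then recruit gp130, whereas leukaemia inhibitory factor, encoded by Lif, and oncostatin M use gp130 paired with the LIF receptor or the oncostatin M receptor. Janus kinases bound to the receptors then phosphorylate STAT3, which enters the nucleus and switches on target genes, among them Socs3, whose protein binds gp130 and shuts the signal down. Oncostatin M is made mainly by neutrophils, macrophages and other blood-derived cells, while its receptor is typical of fibroblasts, epithelium and other tissue cells.

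The gene file of pup 1 summed to 43653931 expected counts and that of pup 2 to 32564563. Levels are in TPM, a share of all transcripts in the library after correction for length, so that genes can be compared, given for each pup or as mean ± SD over both. The tissue label was met by its markers: 8 of 8 smooth muscle genes and 8 of 8 urothelial genes reached 1 TPM in both pups, with list medians of 2455 and 661 TPM. The pups were not alike in blood-derived RNA, as the summed TPM of 6 erythroid genes was 2.72 times as high in pup 2. In whole tissue, fewer cells of a type and less RNA per cell cannot be told apart. Nothing beyond the litter is stated about how the samples were taken, so differences between pups may be of the animal, the dissection or the library.

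Of the 10 genes, 7 reached 1 TPM in both pups, against 58.5% of 21474 protein-coding genes. All 4 receptor subunits and both signalling genes did, but of the 4 ligands only Lif did. The median of mean levels was 1.77 TPM for the ligands, 8.385 TPM for the receptors and 53.5 TPM for Stat3 and Socs3. The ligand median rests on which pup is taken, as it was 0.77 TPM in pup 1 alone and 1.945 TPM in pup 2 alone. Il6st was the highest at 208 ± 44.2 TPM, followed by Stat3 at 90.1 ± 15.5 TPM, Socs3 at 16.9 ± 0.170 TPM and Osmr at 10.1 ± 0.870 TPM. The values of the pups did not overlap between neighbours down to Osmr, nor between Lif and Il11. From Il6ra to Lifr, Osm and Lif, and between Il11 and Il6, neighbours overlapped, and their order is not resolved by 2 pups.

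**Figure D1:**
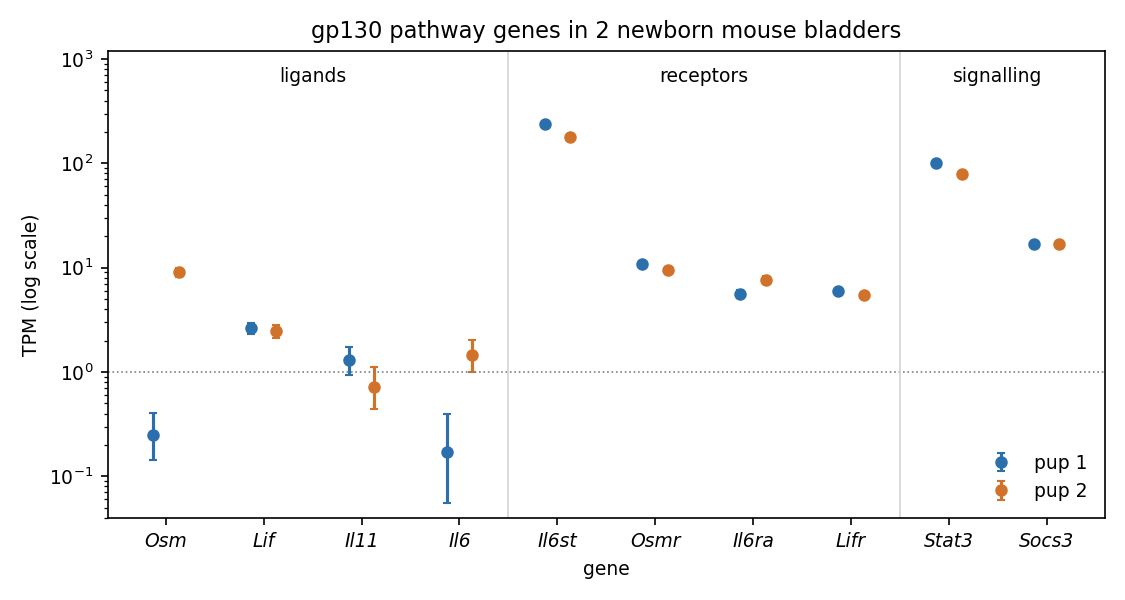
TPM on a log axis for the 10 genes, grouped as ligands, receptors and signalling genes and ordered by mean within each group. Points are single pups, bars are 95% Poisson intervals of the count, and the dotted line is 1 TPM. Osm lies at 0.25 TPM in pup 1 and 9.00 TPM in pup 2, while the receptors and signalling genes lie close together in the pups.

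Osm, the ligand oncostatin M, was the gene of the set that differed most between littermates. It lies on chromosome 11 from 4236420 to 4241026 on the plus strand (mm10). Pup 1 had 16 counts and 0.25 TPM (95% Poisson interval 0.143 to 0.406), and pup 2 had 461 counts and 9.00 TPM (8.20 to 9.86). After scaling of the libraries with TMM factors, Osm was 38.1-fold higher in pup 2 (95% binomial interval 23.2 to 67.3). Among the 15605 genes whose counts averaged 20 or more, this was the 5th highest ratio. Osm was in this set only through its counts in pup 2, so the rank is a description only. The intervals cover counting error only.

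Il6, the classical interleukin of the family, was low in both pups and also higher in pup 2. Its counts were 5 in pup 1 and 34 in pup 2, or 0.17 and 1.44 TPM, a 9.00-fold difference with a wide interval of 3.50 to 29.5. With a mean count of 19.5 it fell just under the minimum of 20, so it is not among the genes counted below. Il6 and Osm were the only members whose counting interval lay wholly above 2-fold. The 250 bases before the RefSeq start of Il6 (GRCm38.p6, chr5:30012864-30013113, plus strand) are shown because Il6 was 1 of the 2 ligands that were higher in pup 2, and the RefSeq table used held windows for 9 of the 10 genes. Capitals mark matches to AP-1 (TGANTCA) and C/EBP (TTGCNNAA or TTNNGCAA), 2 short patterns searched on both strands.
Il6: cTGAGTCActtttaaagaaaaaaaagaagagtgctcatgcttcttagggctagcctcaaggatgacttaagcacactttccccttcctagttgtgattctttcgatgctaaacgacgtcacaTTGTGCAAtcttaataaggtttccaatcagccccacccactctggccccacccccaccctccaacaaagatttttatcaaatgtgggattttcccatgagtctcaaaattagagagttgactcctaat
From the 5′ end the capitals are an AP-1 match 249 bases before the start and a C/EBP match at 128 bases. Of 32851 windows of the same length, 6.75% held the AP-1 pattern and 9.56% the C/EBP pattern. The windows of Lif and Il11 also held an AP-1 match, at 228 and 98 bases. Such matches describe letters only.

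Lif and Il11 did not share this difference. Lif, leukaemia inhibitory factor, had 286 counts and 2.63 TPM in pup 1 and 198 counts and 2.45 TPM in pup 2, and the ratio of pup 2 over pup 1 was 0.916 (0.760 to 1.10). It is the direct neighbour of Osm on chromosome 11, from 4257557 to 4272514 on the same strand, 16.5 kb away with no protein-coding gene between them. Within pup 1 Lif was 10.5 times as high as Osm by TPM, and within pup 2 Osm was 3.67 times as high as Lif. The order of these adjacent genes was therefore opposite in the littermates. Il11, a ligand known from stromal cells, had 45 counts and 1.29 TPM in pup 1 and 20 counts and 0.72 TPM in pup 2. Its ratio of 0.588 had an interval of 0.329 to 1.02, which includes equal levels.

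Among the receptors, Il6st was far above the subunits that pair with it. Il6st, on chromosome 13 from 112464070 to 112510086, had 30086 counts and 239.6 TPM in pup 1 and 20276 counts and 177 TPM in pup 2, higher than 97.0% of protein-coding genes by mean level. By TPM it was 22.3 and 18.6 times as high as Osmr, 39.9 and 32.7 times as high as Lifr, and 42.9 and 23.1 times as high as Il6ra in pup 1 and pup 2. These multiples include a short transcript described further on. Without it Il6st was at 174 and 144 TPM, so the multiples would be smaller. By scaled counts Il6st was 1.12-fold higher in pup 1 (1.10 to 1.14). The difference by TPM was wider, and it narrowed when that short transcript was left out.

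Osmr and Lifr, which choose between oncostatin M and leukaemia inhibitory factor, were moderate and close in the pups. Osmr, the oncostatin M receptor subunit on chromosome 15 from 6813577 to 6874969, had 10.8 TPM in pup 1 and 9.53 TPM in pup 2, with 1549 and 1103 counts. Its ratio of pup 2 over pup 1 was 0.942 (0.871 to 1.02). Set against its ligand by TPM, Osmr was 43.0 times as high as Osm in pup 1 but 1.06 times in pup 2. Lifr, the LIF receptor subunit, lies 216 kb from Osmr on the same chromosome, from 7090614 to 7197489 on the opposite strand. It had 6.01 and 5.41 TPM on 1411 and 976 counts, and a ratio of 0.915 (0.843 to 0.994). Osmr was 1.79 and 1.76 times as high as Lifr in the pups, and Lifr was 2.29 and 2.21 times as high as Lif.

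Il6ra, the subunit that binds interleukin-6 and is found on leukocytes and hepatocytes among other cells, was the only one of the 4 receptor subunits Osmr, Lifr, Il6ra and Il6st that was higher in pup 2. It had 542 counts and 5.58 TPM in pup 1 and 595 counts and 7.67 TPM in pup 2. The difference was 1.45-fold (1.29 to 1.63). An antisense gene, Gm42809, overlaps Il6ra on chromosome 3 between 89864059 and 89913196. Gm42809 had no value of its own in the deposited data. Whether the counting used strand is not stated, so any reads of Gm42809 within the Il6ra counts cannot be told apart.

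Stat3 and Socs3 were well expressed in both pups. Stat3, on chromosome 11 from 100885098 to 100939540, had 10997 counts and 101 TPM in pup 1 and 7194 counts and 79.2 TPM in pup 2, and was 1.16-fold higher in pup 1 by scaled counts (1.12 to 1.19). Its end overlaps that of Stat5a on the other strand, which had 343 and 267 counts. Socs3, the feedback inhibitor and a direct STAT3 target, had 1229 counts and 16.7 TPM in pup 1 and 996 counts and 17.0 TPM in pup 2. Its ratio of pup 2 over pup 1 was 1.07 (0.985 to 1.17), beside 38.1 (23.2 to 67.3) for the ligand Osm. Any effect of the difference in Osm on Socs3 was not tested. By TPM the coefficient of variation of Socs3 over the pups was 1.01% of its mean, the lowest of the 10 genes, against 134% for Osm, while by scaled counts Osmr was nearer to equal, with a log2 ratio of -0.09 beside 0.10 for Socs3.

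Of the 9 genes with a window, Socs3 was the only one with a STAT pattern (TTCNNNGAA, the same on both strands), which 7.02% of all windows held. The stretch with it is shown because Socs3 stands for the target side of the pathway. It lies at chr11:117969452-117969616 on the minus strand (GRCm38.p6), outside annotated exons. Counted from its first base, the match lies 334 bases upstream of the start of Socs3-201, the transcript to which all Socs3 reads were assigned. Capitals mark the STAT match.
Socs3: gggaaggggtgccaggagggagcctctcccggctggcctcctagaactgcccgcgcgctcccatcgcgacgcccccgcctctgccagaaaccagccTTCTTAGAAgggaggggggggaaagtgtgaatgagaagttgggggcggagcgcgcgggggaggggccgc
The STAT match reads TTCTTAGAA, and its first base lies 154 bases before the RefSeq start. No match in the other windows says only that these letters are not within 250 bases of those starts.

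Between the pups, most of the 10 genes differed by less than 2-fold. Of the 10 genes 9 had a mean count of at least 20, and Osm passed this minimum only through pup 2. Of the 9, 1 gene, Osm, was 2-fold or more higher in pup 2, where 2.85% of all 15605 genes were, and none was 2-fold lower, where 0.865% were. Taking both directions, 3.71% of all genes were 2-fold apart. With no minimum count 2 of 10 were 2-fold higher, Osm and Il6, against 10.5% of 24230 genes with any read, and none was 2-fold lower, against 7.33% (17.8% in either direction). The counting interval was above equal levels for Osm and Il6ra and below for Il6st, Stat3 and Lifr, so 5 of 9 in all, against 21.3% above, 26.0% below and 47.3% in all among the 15605 genes. The median log2 ratio over the 9 genes was -0.13, beside -0.01 over all genes. Without Osm, the other 8 ran from a log2 ratio of -0.77 in Il11 to 0.54 in Il6ra.

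**Figure D2:**
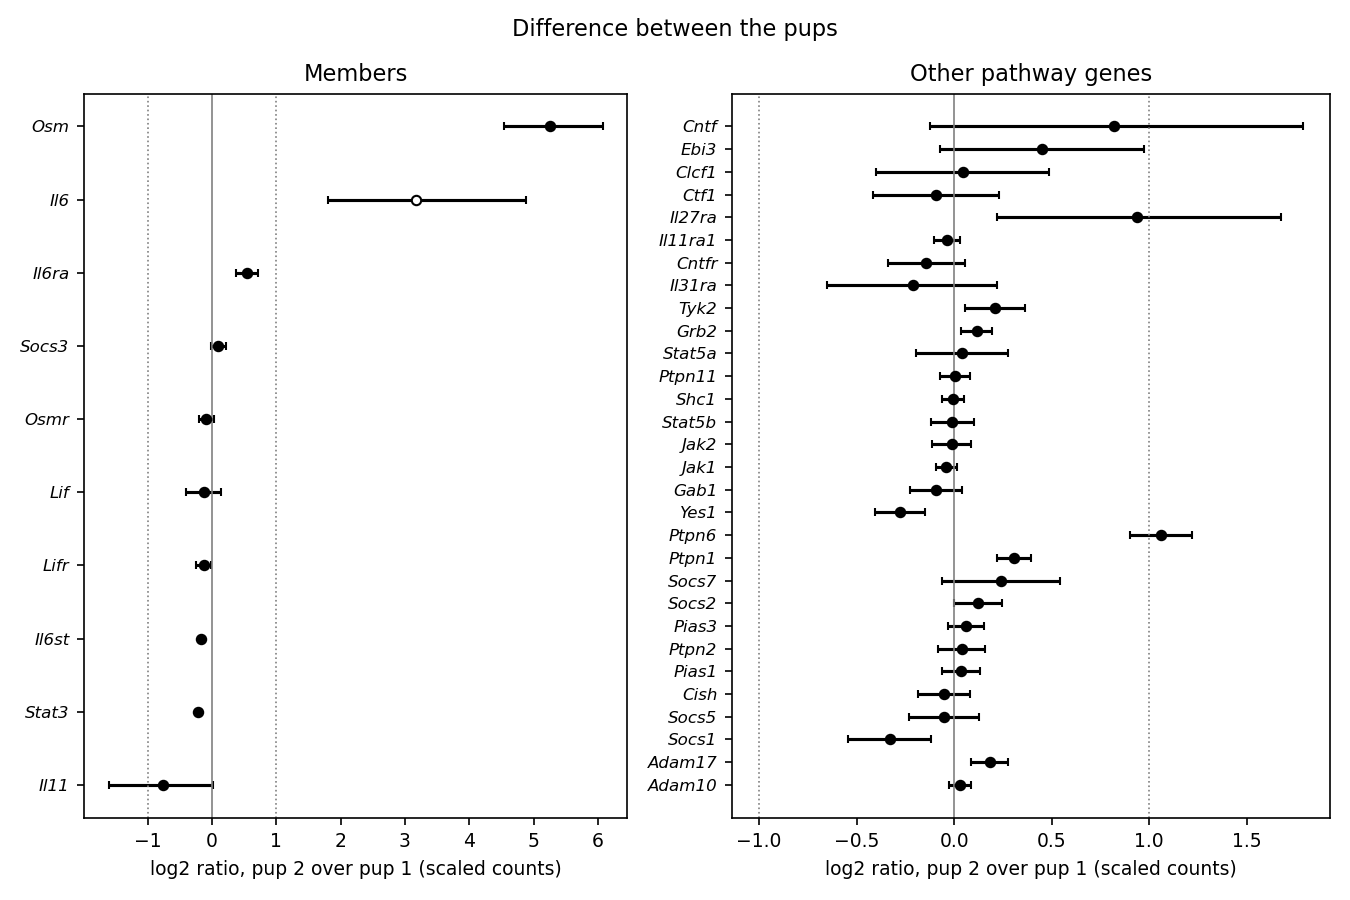
Log2 ratio of pup 2 over pup 1 from TMM-scaled counts for the 10 genes (left) and for other pathway genes whose counts averaged 20 or more (right, grouped from ligands at the top to sheddases at the bottom). Bars are 95% binomial intervals, dotted lines mark 2-fold, and the open point is Il6, which is under the count minimum. Osm at 5.25 and Il6 at 3.17 stand apart from the other members, which lie between -0.77 and 0.54.

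Other ligands of the family were scarce. Of 8 further ligand genes, 3 reached 1 TPM in both pups, against 58.5% of 21474 protein-coding genes. These were Ctf1, which encodes cardiotrophin-1, at 4.96 ± 0.424 TPM, and Ebi3, a subunit of interleukin-27, at 2.25 ± 0.396 TPM. The other was Clcf1, cardiotrophin-like cytokine factor 1, at 1.53 ± 0.0495 TPM. Cntf, ciliary neurotrophic factor, followed with 0.62 and 1.03 TPM in pup 1 and pup 2. The 4 that could be compared at a mean count of 20 had intervals that included equal levels, with ratios from 0.938 in Ctf1 to 1.76 in Cntf. Among all 15605 genes at this minimum, the interval excluded equal levels for 47.3%. Il31 had 0 counts in both pups, which allows up to 0.141 TPM in pup 1 and 0.176 TPM in pup 2, and Il27 had 1 count in each pup. In pup 1 Ctf1 was above Osm and Lif, and in pup 2 Osm, at 9.00 TPM, was the highest of all 12 ligand genes examined.

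The receptor for interleukin-11 was far above its ligand. Il11ra1 had 103 TPM in pup 1 and 93.6 TPM in pup 2, and was 18.4 and 12.2 times as high as Il6ra, the receptor for interleukin-6. Its counts were not whole numbers, so some reads were shared with another entry, with posterior SDs of 4.05 and 3.56 counts on 4109 and 3028. Cntfr, the receptor for ciliary neurotrophic factor, was at 8.81 ± 0.566 TPM. Il31ra had 1.08 and 0.88 TPM and Il27ra 0.38 and 0.69 TPM. Il27ra was the receptor gene of this group with an interval above equal levels, at 1.92-fold higher in pup 2 (1.17 to 3.19) on 29 and 42 counts.

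Of the kinases, adaptors and other signal transducers of the pathway examined here, 10 of 10 reached 1 TPM in each pup, against 58.5% of protein-coding genes. Their median log2 ratio was -0.01. The highest were the adaptor Shc1 at 66.9 ± 2.09 TPM, the kinase Jak1 at 49.0 ± 0.643 TPM, the adaptor Grb2 at 44.7 ± 1.88 TPM and Ptpn11, the phosphatase SHP-2 that links gp130 to the MAP kinase pathway, at 19.0 ± 0.693 TPM. None was 2-fold apart. The counting interval was above equal levels for 2 of 10, Grb2 and the Janus kinase gene Tyk2, and below for 1 of 10, the Src-family kinase gene Yes1. Their ratios of pup 2 over pup 1 were 1.08 (1.02 to 1.15), 1.16 (1.04 to 1.28) and 0.826 (0.756 to 0.903). Among all 15605 genes the interval was above equal levels for 21.3% and below for 26.0%, so these counts were not above the general share.

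Inhibitors were also expressed throughout, 10 of 10 at 1 TPM in both pups, against 58.5% of protein-coding genes. The phosphatase Ptpn1 was at 34.8 ± 2.67 TPM, Pias3, an inhibitor of STAT3, at 31.96 ± 0.693 TPM, Socs2 at 28.2 ± 0.940 TPM and the phosphatase Ptpn2 at 27.4 ± 0.325 TPM, all above Socs3. Only Ptpn6, which encodes the phosphatase SHP-1 of blood cells, was 2-fold apart, where 3.71% of all 15605 genes were. Ptpn6 had 8.54 TPM in pup 1 and 16.5 TPM in pup 2, a 2.09-fold difference (1.87 to 2.33). The sheddases Adam10 and Adam17, which release soluble interleukin-6 receptor, were at 43.8 ± 1.26 and 15.5 ± 0.778 TPM.

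A list of 25 genes known to respond to STAT3 was mixed. It was drawn up from general knowledge with earlier results of these libraries known, and several of its genes answer to other signals or mark other cells. In pup 2, 15 were higher and 10 lower, and the median log2 ratio was 0.11. Of the 25, 5 were 2-fold or more higher and 1 was 2-fold or more lower, against 2.85% and 0.865% of all 15605 genes. The counting interval was above equal levels for 12 and below for 7 of the 25, against 21.3% and 26.0% of all genes. The 2-fold higher genes were Saa3, an acute phase protein, from 3.17 to 43.9 TPM (14.7-fold), Lcn2, a lipocalin also stored in neutrophil granules, from 1.84 to 7.99 TPM (4.59-fold), the monocyte chemokine gene Ccl2 (2.38-fold), Lrg1 (2.22-fold) and the protease inhibitor gene Timp1 (2.09-fold). Fgg, fibrinogen gamma chain of the liver, was lower, at 4.55 TPM in pup 1 and 0.79 TPM in pup 2. Of 7 hepatocyte genes 6 were likewise 2-fold or more lower in pup 2, with a summed level of 74.98 TPM in pup 1 and 20.2 TPM in pup 2, and the part of this in the value for Fgg was not tested. The most abundant targets were Timp1, at 71.4 and 142 TPM, Junb, at 75.7 and 87.3 TPM, Mcl1, at 73.4 and 66.1 TPM, and Cebpd, at 74.3 and 56.9 TPM. Genes that respond early to stimuli were found on both sides: Cebpd had a ratio of 0.809 (0.757 to 0.863), Junb 1.22 (1.17 to 1.28), Fos 1.56 (1.44 to 1.69) and Cebpb 1.89 (1.74 to 2.06).

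Most markers of myeloid cells were higher in pup 2, as was Osm. Of 10 neutrophil genes 7 had a mean count of at least 20, and 6 of these were 2-fold or more higher in pup 2, with a median log2 ratio of 3.50. Over all 15605 genes at this minimum the share was 2.85%. Cxcr2, with 4 and 143 counts, and Retnlg, with 15 and 249, passed the minimum only through pup 2, as did Osm. The summed level of the 10 neutrophil genes was 38.7 TPM in pup 1 and 404 TPM in pup 2. The highest were S100a8, at 24.6 and 263 TPM, and S100a9, at 8.90 and 105.7 TPM. Ly6g had 0 counts in both pups, which allows up to 0.186 and 0.232 TPM, and Elane had 3 counts in each. Mpo, a granule enzyme of neutrophil precursors, went the other way, with 29 and 15 counts and a ratio of 0.684 whose interval of 0.341 to 1.32 includes equal levels. Of 12 macrophage genes 7 were 2-fold or more higher in pup 2, with a median log2 ratio of 1.14 and summed levels of 635 and 1978 TPM. Lyz2, the lysozyme gene of macrophages and neutrophils, held much of this, and without it the sums were 418 and 873 TPM, or 2.09 times as high in pup 2 in place of 3.12 times. Mrc1, the mannose receptor of resident macrophages, was lower in pup 2, with a ratio of 0.721 (0.674 to 0.772), and Aif1 had a ratio of 0.910 (0.730 to 1.13). Of 6 mast cell genes, 2 of the 5 with enough counts were 2-fold higher, with sums of 97.9 and 224 TPM. None of 8 lymphocyte genes reached 1 TPM in both pups, Cd8a had 0 counts in both, and their sums were 1.32 and 1.36 TPM. The part of these cells in the levels of Osm, Il6, Il6ra, Il27ra, Ptpn6, Saa3, Lcn2, Ccl2, Lrg1 and Timp1 was not tested.

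By contrast, markers of the tissue itself were near equal, as were most receptors. Median log2 ratios were -0.07 for 8 smooth muscle genes, -0.13 for 6 fibroblast genes and 0.07 for 8 urothelial genes. They were 0.13 for 4 mesothelial genes and -0.01 for 6 endothelial genes. No gene of these lists was 2-fold apart, against 3.71% of all 15605 genes. The ratios of Osmr, Lifr and Il6st, between -0.17 and -0.09 on the log2 scale, lay within the ranges of the fibroblast genes, -0.22 to 0.27, the smooth muscle genes, -0.21 to 0.05, and the endothelial genes, -0.24 to 0.49. Osmr and Lifr also lay within the ranges of the urothelial genes, -0.13 to 0.14, and the mesothelial genes, -0.15 to 0.28. Il6st, at -0.17, lay just below both. All these ranges also hold the median of all 15605 genes, -0.01, so lying within them does not assign a receptor to a cell type.

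**Figure D3:**
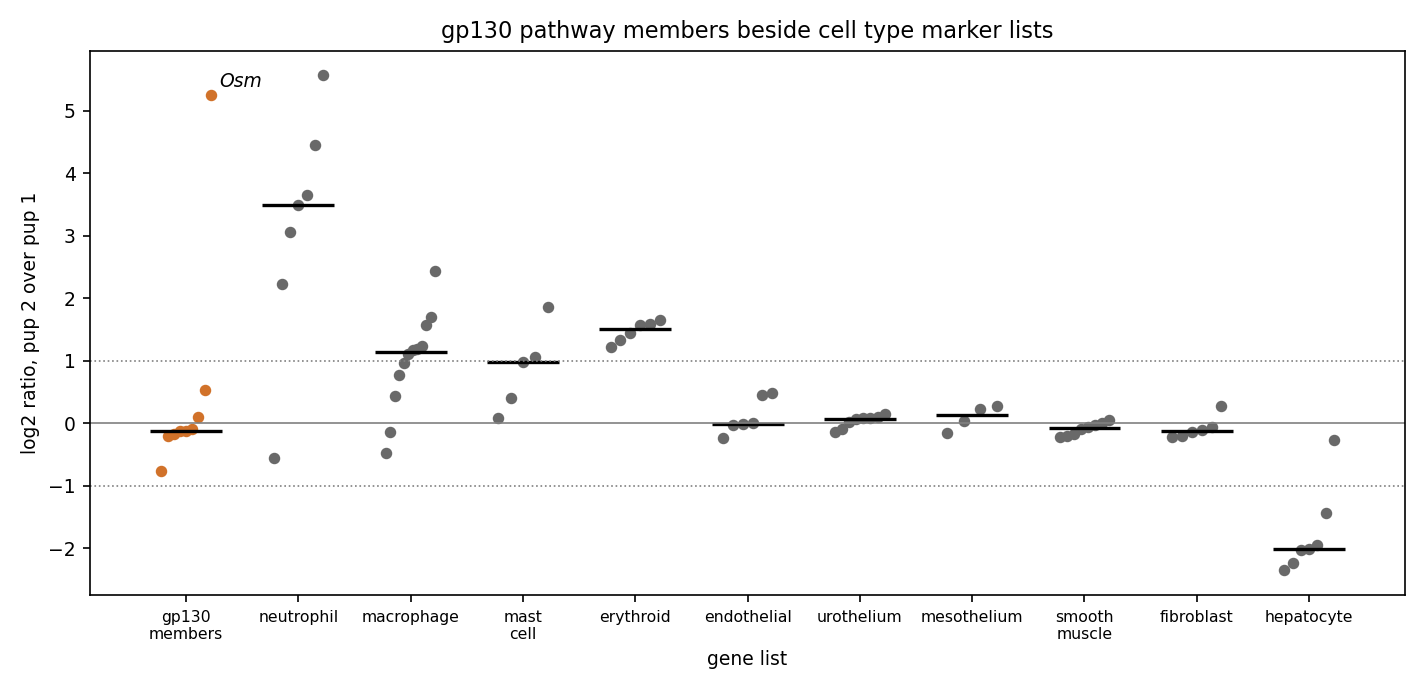
Log2 ratio of pup 2 over pup 1 for the gp130 pathway genes (orange) and for marker genes of 10 cell types (grey), at a mean count of at least 20. Each point is a gene, horizontal bars are list medians, and dotted lines mark 2-fold. Osm is at 5.25, the median of the neutrophil genes at 3.50 and that of the pathway genes at -0.13. The neutrophil genes Cxcr2, at 5.56, and Retnlg, at 4.46, like Osm passed the count minimum only through pup 2. The next highest neutrophil gene is S100a9, at 3.65.

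The transcript files showed which forms of the receptors and of Stat3 carried the reads. The leading transcript was the same in both pups for all 10 genes. For Il6ra and Il6 the files held 1 transcript each, and Osm-201 held 100% and 98.0% of the TPM of Osm. Osmr-201, which encodes the full receptor of 971 codons, held 84.1% and 81.6% of the TPM of its gene, and 4 transcripts with a retained intron held 15.9% and 16.8% together.

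For Il6st, TPM and counts gave different pictures. Il6st-201, with a coding length of 917 codons, held 59.8% of TPM in pup 1 and 63.1% in pup 2. Il6st-205, a fragment of 322 nt whose annotated coding sequence is incomplete, held 27.4% and 18.8% of TPM on only 1.46% and 0.877% of the counts, 439 and 178. Without transcripts shorter than 500 nt, Il6st was at 174 TPM in pup 1 and 144 TPM in pup 2, still the highest of the 10 genes. Its log2 ratio of pup 2 over pup 1 was -0.44 by deposited TPM, -0.27 by TPM without the short transcripts and -0.17 by scaled counts.

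Forms of Lifr and Stat3 with different functions were also separated. Lifr-202 ends after 719 codons in place of 1092 and corresponds to the shorter, soluble form of the receptor known in the mouse. It held 15.4% and 21.2% of the TPM of Lifr on 76 and 75 counts, with posterior SDs of 13.3 and 10.9 counts. The full-length forms Lifr-203 and Lifr-201 held 72.7% and 11.9% in pup 1 and 68.5% and 10.3% in pup 2. Stat3-203, of 770 codons, held 64.1% and 70.8% of the TPM of Stat3, and Stat3-201, which is 1 codon shorter, held 24.5% and 17.3%. Stat3-202, which has 722 codons and matches the truncated beta form, held 1.01% and 2.20% on 182 and 248 counts with posterior SDs of 34.1 and 40.2. Lif-201 and Lif-202 shared the reads of Lif with posterior SDs of 44.8 counts on 173 and 112 counts in pup 1, so their split is not well determined.

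**Figure D4:**
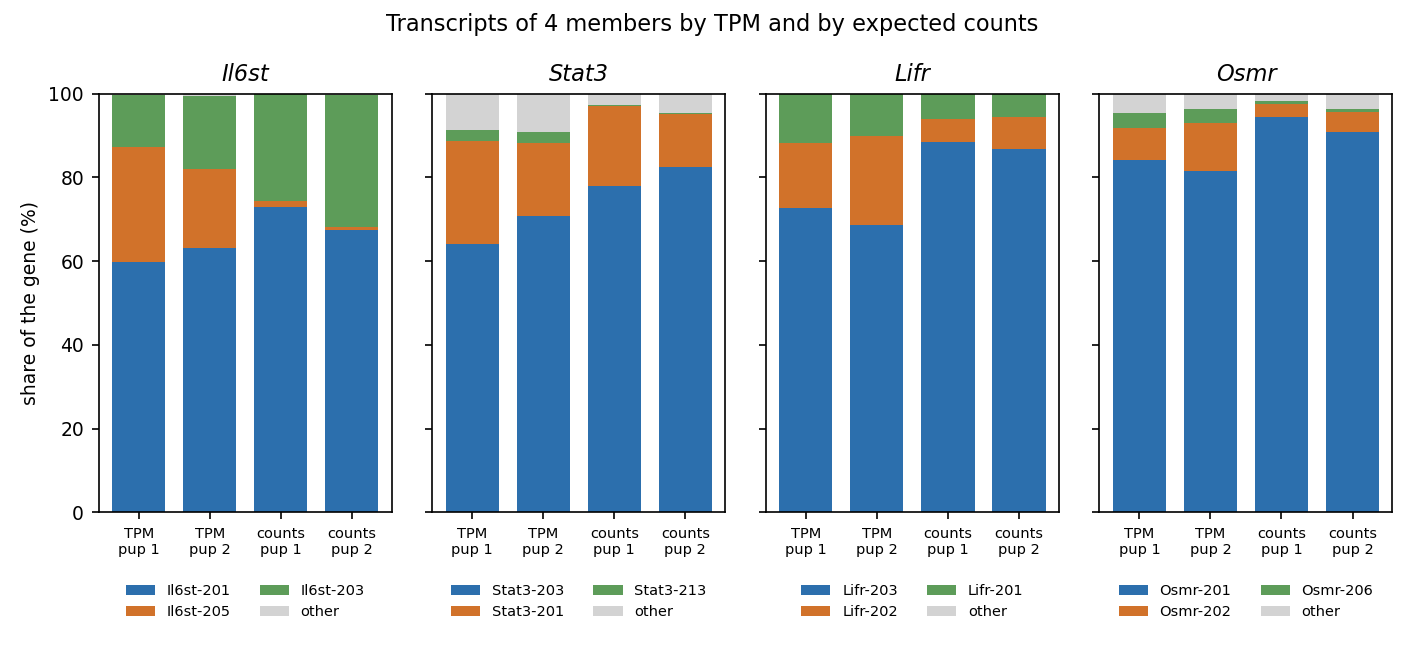
Share of each gene held by its 3 leading transcripts and by all others, by TPM and by expected counts, in each pup. Il6st-205 (orange in the Il6st panel) holds 27.4% and 18.8% of TPM but 1.46% and 0.877% of counts.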

How the data were processed

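Total RNA libraries of 2 bladders were used. Assembly mm10 and GENCODE M4 are named in the text listing deposited with each sample; for the aligner, the version of the estimator and strand, the entry is: not given in the sources used here. Expected counts, TPM, FPKM and percent of gene per transcript were deposited by the authors in the layout of the RSEM estimator, per the file headers, 1 gene and 1 transcript file per pup; FPKM was not used. Names and coordinates came from GENCODE M21 (same assembly), matched by identifier for 42462 of 43346 mouse genes. Windows before gene starts came from RefSeq (GRCm38.p6), which held 9 of the 10 members. Expected counts, rounded, were divided by TMM effective library sizes (edgeR 4.0.16 in R 4.3.3), and log2 ratios of pup 2 over pup 1 carry exact binomial (Clopper-Pearson) intervals at 95%; a count of 0 was set to 3. With 1 library per pup no residual degrees of freedom remain and no test was run. A self-test on simulated counts was made. DESeq2 1.42.0 size factors served as an alternative. Python 3.11.15, pandas 2.3.3 and scipy 1.17.1 were used.

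The members, lists and settings were chosen with earlier results of these data known. All members were named, with, from each pathway list, the 4 highest genes, those 2-fold apart at a mean count of at least 20 and those at 0 in both pups; cell type lists were given as counts and sums, with up to 2 highest genes for the neutrophil list and genes at 0. Il27, Il27ra, Tyk2, Yes1, Elane, Mpo, Lyz2, Mrc1, Aif1, Fos and Cebpb were named after their values were seen. Of the list of signal transducers, 2 genes are not reported here and were left out of its counts.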

Additional observations from a re-analysis of the deposited data

How the results depend on the processing

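All 10 members kept the sign of their ratio between the pups under 6 other scalings or measures. The log2 ratio of Osm was 3.0 with 1 added to TPM, against 5.25, and up to 5.27 otherwise; that of Il6 was 1.06 with 1 added to TPM. Adding 1 shrinks the ratios of low genes by construction. With no minimum count 2 members were 2-fold apart, since Il6 was then included. Leaving out a pup gave a ligand median of 0.77 to 1.945 TPM and a receptor median of 8.385 to 8.6 TPM. At a threshold of 0.5 TPM the count of expressed members stayed within 1.5 times. The alternatives without transcripts shorter than 500 nt and without a marker list's highest gene were added after seeing the data. The first put Il6st at 159 TPM, against 208 TPM. Depth limits Il6 and Il11, with 5 to 45 counts. No paired analysis was possible because both pups form 1 group.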

Other observations

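The genes nearest to Osm in the order of ratios between the pups, chosen after their values were seen, included 4 genes known from neutrophils and other myeloid cells. All 4, like Osm, passed the minimum mean count of 20 only through pup 2. The order rests on the same ratio that set Osm apart, so it is a description only. The share of myeloid genes among all high ratios was not counted. Just above Osm stood Cd101, with 2 counts in pup 1 and 74 in pup 2, and Cxcr2, the neutrophil chemokine receptor, with 4 and 143 counts. Below it were Cd177, a neutrophil surface protein gene, with 2 and 45 counts, and Gpr84, a receptor of myeloid cells, with 7 and 136 counts. Between and beside these stood Xlr4a, Xlr4b and the pseudogene Gm2274, which are not myeloid markers. The 2 highest ratios belonged to Gm20388 and Tom1, which had 0 counts in pup 1 and 325 and 307 expected counts in pup 2. Their counts were not whole numbers, so some of their reads were shared with other entries.

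Immediate early genes respond to many stimuli and to handling of tissue. None of the 9 was 2-fold apart, against 3.71% of all 15605 genes. In pup 2, 7 were higher and 2 lower, while 7388 of all 15605 genes were higher. Their median log2 ratio was 0.24, from -0.46 in Nr4a1 to 0.64 in Fos. The counting interval was above equal levels for 5 and below for 2, against 21.3% and 26.0% of all genes. The part of handling in these ratios was not tested.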
